A study of Mus musculus with 12 samples.

Results

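The lysosomal cathepsins are the acid proteases that break down protein inside the lysosome. Here 9 of them were followed in cultured mouse myeloid-derived suppressor cells (MDSCs): Ctsb, Ctsl, Ctss, Ctsk, Ctsh, Ctsc, Ctsz, Ctsd and Ctsa. They were taken from the count table by gene symbol, from a list drawn up with earlier results of these data known. All 9 were present among the 35303 gene symbols of the count table, and all 9 were among the 17676 symbols that were tested. Cathepsin G, which despite its name is a granule serine protease, was left out.

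The study attached rapamycin-releasing particles to MDSCs as a cell therapy for a mouse model of multiple sclerosis, and asked by RNA sequencing how the cells' transcripts changed. There were 3 groups of 4 libraries. MDSC were the unmodified cells, MDSC-NP-Blk carried blank poly(lactide-co-glycolide) nanoparticles on their surface, and CITED carried the same kind of particle loaded with rapamycin, an inhibitor of the growth kinase mTOR. All were wild type and came from the bone marrow of female C57BL/6 mice aged 6 to 10 weeks, grown for 3 days with IL-6 and GM-CSF, and all were kept for a further 24 hours in IL-6 at 40 ng/ml before RNA was taken. The particles were joined by click chemistry to azido sugars fed to the cells, and the sources used here do not state whether the unmodified cells were fed the sugar. The study describes the 4 libraries of a group as independent biological replicates, without saying whether each came from a mouse of its own. MDSC cultures mix granulocytic and monocytic cells, and in such bulk RNA a change in the number of cells of a type and a change in RNA per cell cannot be told apart.

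Cathepsins are made as inactive precursors, carried to the lysosome mainly by mannose 6-phosphate receptors, and activated there at acid pH. Most belong to the papain family of cysteine proteases, while cathepsin D is an aspartic protease and cathepsin A a serine carboxypeptidase. In myeloid cells they digest engulfed material, trim antigens and the class II invariant chain, and, in the case of cathepsin C, switch on the proteases of the granules. The transcription factors TFEB and TFE3 bind short E-box sequences in lysosomal gene promoters, and mTOR complex 1 is known to hold these factors in the cytoplasm.

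Each library held 20604809 to 37855478 counts, which puts all members but Ctsk far above counting noise. A normalized count below is a gene's count scaled for library size and for composition (TMM) to the mean library. A gene passed the test where edgeR's quasi-likelihood test gave an adjusted p under 0.05 over all genes tested, and a stricter call also asked that the log2 fold change reach 1 in either direction. The labels give the tissue as CNS, while the study's methods describe cultured marrow. Among CNS markers, the neuronal Snap25 and astrocytic Gfap were at 0 counts in every library. Others were present, with Mbp at 1763 to 2237 normalized counts, the microglial markers Tmem119 at 1211 to 2150 and P2ry12 at 15.5 to 51.8. The myeloid markers Itgam, Ly6g and Ly6c2 were also present, Itgam at 50128 to 71920 normalized counts. MDSC-NP-Blk libraries 1 and 4 stood apart from libraries 2 and 3. Their counts differed by a chi-square per degree of freedom of 5.69 within the first pair and 5.91 within the second, against 15.7 to 21.8 across the pairs.

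All 9 are protein-coding genes in GENCODE M39 on GRCm39, the build of the gene positions given with each member. The promoters are shown first, to set the E-box sequences that each member holds beside its values. RefSeq promoter windows (build GRCm38.p6, from 250 bases before to 50 after the first transcribed base) were at hand for 7 of the 9 members, in 8 windows. Ctsb and Ctsh had no entry. Each window was searched on both strands for the full CLEAR palindrome of lysosomal genes, for its core TCACGTGA and for the bare E-box CACGTG, each of which lies inside the one before. The full palindrome is the core with G before it and C after it. The full palindrome was in 0 of the 8 windows and in 0.326% of all 32851 windows. The core was in 2 windows, those of Ctsa and Ctsd (0.974% of all windows), and the bare E-box in 3, those of Ctsa, Ctsd and Ctsl (7.15%). The stretches below give these 3 and, for contrast, a stretch of Ctsk, which had no match. Ctsc, Ctss and Ctsz had no match either, and they rose in CITED against MDSC, where Ctsk did not pass. Ctsa had a further window, which also held no match. Capitals mark the core in Ctsd and Ctsa and the bare E-box in Ctsl.
Ctsd, chr7:142387878-142387977, minus strand: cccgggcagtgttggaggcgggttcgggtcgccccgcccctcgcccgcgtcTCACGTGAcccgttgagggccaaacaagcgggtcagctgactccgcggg
Ctsa, chr2:164833693-164833792, plus strand: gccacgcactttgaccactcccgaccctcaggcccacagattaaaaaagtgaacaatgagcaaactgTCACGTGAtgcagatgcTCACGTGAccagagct
Ctsl, chr13:64370671-64370770, minus strand: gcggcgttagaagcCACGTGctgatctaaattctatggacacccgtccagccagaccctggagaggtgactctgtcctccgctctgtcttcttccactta
Ctsk, chr3:95499110-95499209, plus strand: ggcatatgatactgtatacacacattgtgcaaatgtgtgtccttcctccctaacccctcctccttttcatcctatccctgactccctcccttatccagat

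The core in Ctsd began 99 bases upstream of the start site, and a further bare E-box lay 245 bases upstream. Ctsa held the core on each side of a start site, 13 bases upstream and again from transcribed base 5. In Ctsl the E-box lay 236 bases upstream. A match is a stretch of letters, and no binding was measured.

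Of the 9 cathepsins, 6 rose in all 3 comparisons: Ctsl, Ctss, Ctsh, Ctsz, Ctsd and Ctsa. Between CITED and unmodified MDSC, 8 of the 9 rose and 0 fell (22.2% of all tested genes passed in each direction), and Ctsk did not pass. The members' median log2 fold change was 0.74, beside -0.05 for all tested genes. Between MDSC-NP-Blk and MDSC, 7 rose (19.9% of all genes) and Ctsb and Ctsk fell (2 members, 18.6% of all genes), with a median of 0.30 beside -0.03. Between CITED and MDSC-NP-Blk, 8 rose (10.5% of all genes), 0 fell (11.4%) and Ctsc did not pass, with a median of 0.44 beside 0. The 3 comparisons share their libraries pairwise, so these counts are not independent of each other.

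All 4 libraries of one group lay clear of all 4 of the other for 8 members in the first comparison, each higher in CITED (21.2% of all genes in each direction). In the second this held for 7 members that were higher (18.1%) and 2 that were lower (17.4%), and in the third for 8, each higher in CITED (10.4%, with 10.8% of all genes lower). Under the stricter call, Ctsd and Ctsl were higher in CITED than in MDSC (2 members, where 9.99% of all genes were called). Ctsk was lower in MDSC-NP-Blk than in MDSC (1 member, 4.74% called), and 0 members were called between CITED and MDSC-NP-Blk (2.65% called), where 8 passed on the adjusted p alone.

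**Figure D1:**
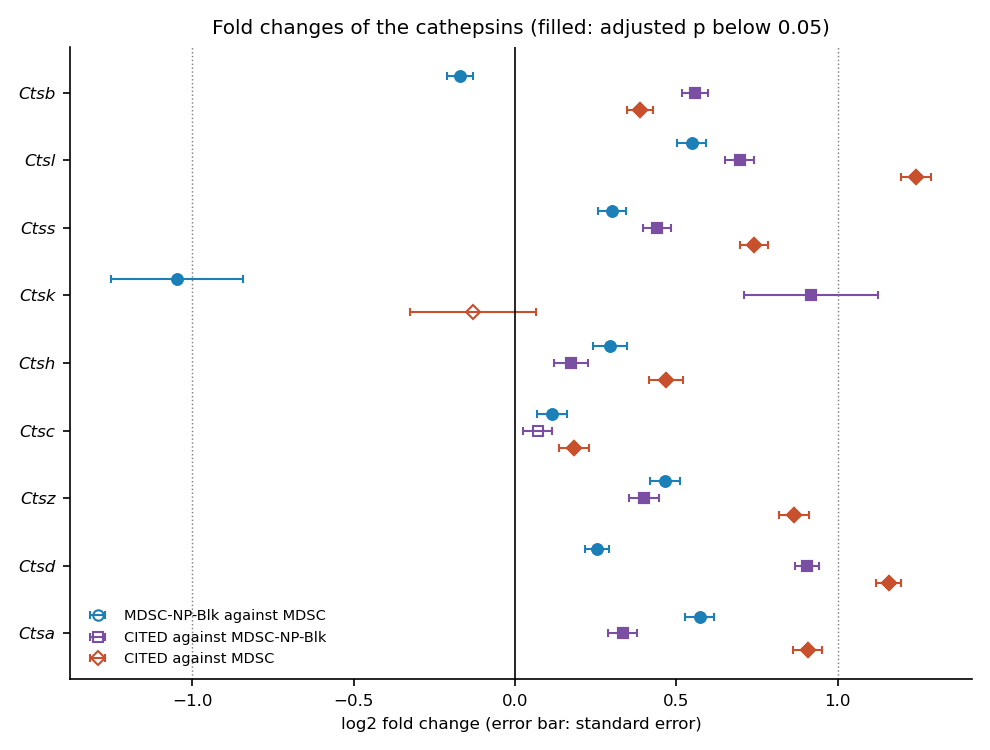
Log2 fold change of each cathepsin (x axis) in the 3 comparisons, with the standard error from the edgeR fit. Filled symbols passed the test, and dotted lines mark a log2 fold change of 1 in each direction. Ctsb and Ctsk sit left of 0 with blank particles and right of 0 for CITED against MDSC-NP-Blk.

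These fold changes are relative to the other genes of each library. When counts were scaled to library totals alone, the median of well-measured genes (over 50 normalized counts) stood at -0.26 in both CITED and MDSC-NP-Blk against MDSC, and the members moved down with it. On that scale 7 members rose and 0 fell in CITED against MDSC, where 2192 of all 17676 tested genes rose and 6323 fell. In MDSC-NP-Blk against MDSC 3 members rose (Ctsa, Ctsl and Ctsz) and 3 fell (Ctsb, Ctsc and Ctsk). Over all genes 1662 rose and 6107 fell in that comparison. The comparison of CITED with MDSC-NP-Blk had 8 higher members by library totals too, where 1739 of all genes rose and 2132 fell.

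Cathepsin D (Ctsd, GRCm39 chromosome 7, 141929646 to 141941775, minus strand), the main aspartic protease of the lysosome, was the most abundant member, and its change between the particle groups was close to that of Ctsk. Its normalized counts were 54244, 56306, 53178 and 55167 in MDSC, 66950, 64751, 63519 and 65778 in MDSC-NP-Blk, and 126136, 122957, 122609 and 117111 in CITED. No 2 groups overlapped, and the CITED libraries stood far above both others. The log2 fold change was 1.16 (SE 0.0387, adjusted p = 1.2e-22) in CITED against MDSC, 0.25 (SE 0.0382, adjusted p = 1.3e-06) in MDSC-NP-Blk against MDSC, and 0.91 (SE 0.0385, adjusted p = 8.2e-19) in CITED against MDSC-NP-Blk. The difference between MDSC-NP-Blk and MDSC rests on the scaling, and by library totals it was -0.0084 (adjusted p = 0.885). Of the 31-base words of Ctsd transcripts, 21.2% also occurred in other genes, chiefly Gm49369, which held 30 to 141 counts where Ctsd held 52626 to 121377.

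Cathepsin L (Ctsl, chromosome 13, 64507151 to 64518704, minus strand), a broad cysteine endopeptidase that also trims the invariant chain, had the highest log2 fold change of the members in CITED against MDSC. MDSC libraries gave 9635, 9255, 9346 and 9404 normalized counts, MDSC-NP-Blk 14559, 13227, 13255 and 13968, and CITED 23303, 22958, 21376 and 21476. The 3 groups were fully separate and in a single order. The log2 fold change was 1.24 (SE 0.0462, adjusted p = 2.0e-21) in CITED against MDSC. It was 0.55 (SE 0.0458, adjusted p = 5.4e-12) in MDSC-NP-Blk against MDSC and 0.70 (SE 0.0457, adjusted p = 5.2e-14) in CITED against MDSC-NP-Blk.

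Cathepsin B (Ctsb, chromosome 14, 63358384 to 63383372, plus strand), an abundant cysteine protease that works both inside and at the ends of proteins, went the other way with blank particles. Its normalized counts were 28762, 29212, 29004 and 29273 in MDSC, 26440, 26151, 25014 and 25627 in MDSC-NP-Blk, and 39073, 37725, 38552 and 36739 in CITED. Every MDSC-NP-Blk library lay below every MDSC library, and every CITED library lay above both. It fell by 0.17 on the log2 scale (SE 0.0401, adjusted p = 6.8e-04) in MDSC-NP-Blk and rose by 0.39 (SE 0.0401, adjusted p = 4.0e-10) in CITED against MDSC, and by 0.56 (SE 0.0402, adjusted p = 4.9e-13) in CITED against MDSC-NP-Blk. The fall was -0.08 (adjusted p = 0.0807) once each library's trend of counts with transcript length was removed. That trend differed between groups, with a rank correlation of 0.218 to 0.346 in MDSC, -0.422 to 0.0919 with blank particles and -0.341 to -0.187 in CITED.

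Cathepsin S, the protease of antigen-presenting cells that completes invariant chain cleavage and stays active at neutral pH, rose in both steps. There were 13084, 13072, 12701 and 12975 normalized counts in MDSC, 16459, 15840, 15758 and 15808 in MDSC-NP-Blk, and 22410, 22563, 20734 and 20961 in CITED. The groups did not overlap. Its log2 fold change was 0.74 (SE 0.0435, adjusted p = 2.8e-16) in CITED against MDSC, 0.30 (SE 0.0433, adjusted p = 5.5e-07) in MDSC-NP-Blk against MDSC and 0.44 (SE 0.0433, adjusted p = 6.9e-10) in CITED against MDSC-NP-Blk. By library totals the second of these was 0.04 (adjusted p = 0.478).

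Cathepsin K, the collagen-degrading protease of osteoclasts, was the lowest member and followed a different course. It was at 120, 88.3, 128 and 120.5 normalized counts in MDSC, at 68.7, 42.0, 61.3 and 51.3 in MDSC-NP-Blk, and at 120.1, 122, 83.0 and 93.6 in CITED. The MDSC-NP-Blk libraries were all below the others, while MDSC and CITED overlapped. The log2 fold change was -1.05 (SE 0.204, adjusted p = 7.1e-05) in MDSC-NP-Blk against MDSC and 0.92 (SE 0.208, adjusted p = 9.8e-04) in CITED against MDSC-NP-Blk. In CITED against MDSC it was -0.13 (adjusted p = 0.632), with a 95% interval of -0.51 to 0.25. The fall passed the test under every alternative tried. Its size dropped under the fold threshold without MDSC replicate 3 (-0.99) and without MDSC-NP-Blk replicate 2 (-0.92). The same held without MDSC-NP-Blk replicates 2 and 3 together. Ctsk lies 17230 bases from Ctss on chromosome 3 (GRCm39 95406178 to 95416732, and 95433963 to 95463717), both on the plus strand, and the neighbours differed in direction with blank particles.

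**Figure D2:**
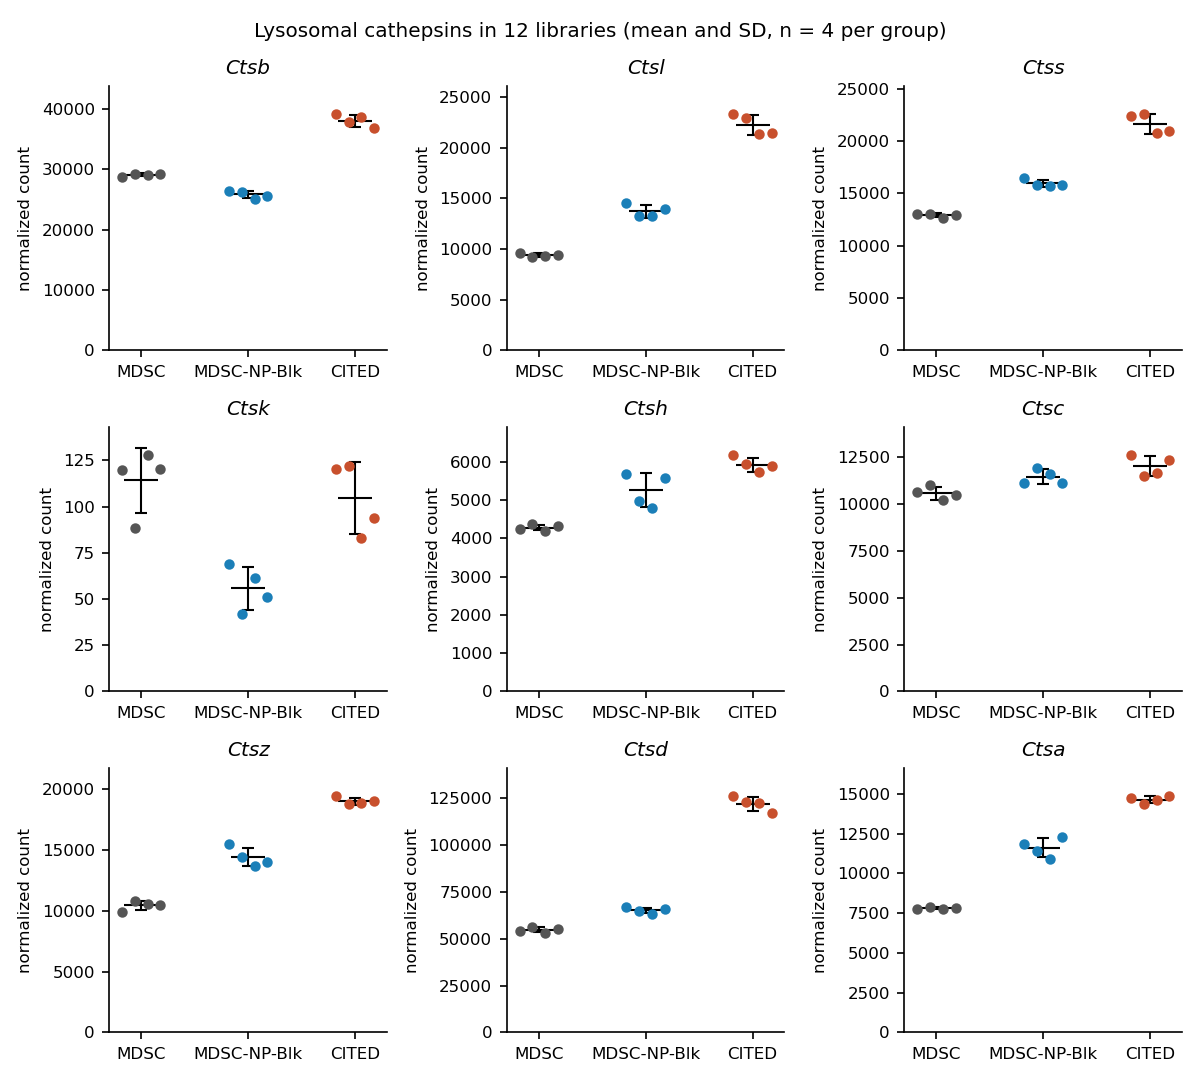
Normalized count (y axis, from 0) of each cathepsin in the 4 libraries of each group, with the group mean and SD. The 3 groups are stepwise apart for Ctsl, Ctss, Ctsh, Ctsz, Ctsd and Ctsa, and MDSC-NP-Blk is the lowest group for Ctsb and Ctsk. Ctsc has the lowest fold change of the 8 members that rose in CITED over MDSC.

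Cathepsin Z (Ctsz, chromosome 2, 174267304 to 174280832, minus strand), a cysteine carboxypeptidase that removes single residues from the end of a protein, rose in all 3 comparisons. Its normalized counts were 9910, 10827, 10544 and 10454 in MDSC, 15451, 14457, 13671 and 14049 in MDSC-NP-Blk, and 19408, 18774, 18828 and 18984 in CITED. The groups stood apart in that order. Its log2 fold change was 0.86 (SE 0.0459, adjusted p = 2.0e-17) in CITED against MDSC, 0.47 (SE 0.0458, adjusted p = 2.3e-10) with blank particles and 0.40 (SE 0.0457, adjusted p = 1.7e-08) in CITED against MDSC-NP-Blk.

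Cathepsin H (Ctsh, chromosome 9, 89936205 to 89958148, plus strand), mainly an aminopeptidase, rose less, and its second step depended on single libraries. MDSC gave 4242, 4369, 4202 and 4313 normalized counts, MDSC-NP-Blk 5675, 4975, 4797 and 5584, and CITED 6168, 5929, 5721 and 5879. CITED lay above MDSC-NP-Blk in every library, but MDSC-NP-Blk libraries 1 and 4 came close to it. The difference was 0.47 on the log2 scale (SE 0.0526, adjusted p = 2.5e-09) in CITED against MDSC, 0.30 (SE 0.0526, adjusted p = 1.9e-05) in MDSC-NP-Blk against MDSC and 0.17 (SE 0.0525, adjusted p = 0.0142) in CITED against MDSC-NP-Blk. The last was 0.28 (adjusted p = 1.8e-05) without MDSC-NP-Blk libraries 1 and 4 and 0.07 (adjusted p = 0.393) without libraries 2 and 3. It also failed the test without MDSC-NP-Blk replicate 2 (adjusted p = 0.0674) or 3 (0.0717) alone, or without CITED replicate 1 (0.0525). By library totals the difference between MDSC-NP-Blk and MDSC was 0.03 (adjusted p = 0.645).

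Cathepsin C (Ctsc, chromosome 7, 87927092 to 87960096, plus strand), the dipeptidyl peptidase that activates the serine proteases of the granules, changed little. MDSC libraries held 10635, 11012, 10197 and 10478 normalized counts, MDSC-NP-Blk libraries 11116, 11924, 11630 and 11116, and CITED libraries 12602, 11474, 11664 and 12326. Both particle groups lay above MDSC and overlapped each other. The log2 fold change was 0.18 (SE 0.0462, adjusted p = 0.00117) in CITED against MDSC and 0.11 (SE 0.0462, adjusted p = 0.0499) in MDSC-NP-Blk against MDSC. The latter lost the test under 10 of 20 alternatives, and by library totals Ctsc was lower in MDSC-NP-Blk (-0.15, adjusted p = 0.00575) and at -0.09 (adjusted p = 0.0915) in CITED. Between CITED and MDSC-NP-Blk it was 0.07 (adjusted p = 0.322), with a 95% interval of -0.02 to 0.16.

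Cathepsin A (Ctsa, chromosome 2, 164674778 to 164682961, plus strand), the serine carboxypeptidase that protects β-galactosidase and neuraminidase in a lysosomal complex, had the highest log2 fold change with blank particles, beside that of Ctsl. Its normalized counts were 7773, 7885, 7758 and 7817 in MDSC, 11848, 11424, 10897 and 12293 in MDSC-NP-Blk, and 14714, 14375, 14636 and 14848 in CITED. The groups were separate, and the 4 MDSC libraries lay within a CV of 0.73%. Its log2 fold change was 0.91 (SE 0.0452, adjusted p = 3.6e-18) in CITED against MDSC, 0.57 (SE 0.0450, adjusted p = 1.2e-12) in MDSC-NP-Blk against MDSC and 0.33 (SE 0.0448, adjusted p = 4.0e-07) in CITED against MDSC-NP-Blk. Its partners in the complex were at -0.00125 (Glb1, β-galactosidase, adjusted p = 1) and 0.08 (Neu1, adjusted p = 0.21) in CITED against MDSC. Both passed in each comparison with MDSC-NP-Blk, in opposite directions. Glb1 was highest there, at a mean of 1568 normalized counts against 1389 in MDSC and 1387 in CITED. Neu1 was lowest there, at 3156 against 3463 and 3666.

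The level of a member can be compared with another only per length. Per kilobase of the GENCODE M39 canonical transcript, the order in MDSC was Ctsd, Ctss, Ctsb, Ctsc, Ctsz, Ctsh, Ctsa, Ctsl and Ctsk, and no neighbours in that order overlapped over the 4 libraries. Ctsd stood at 25728 ± 626 (SD, n = 4) normalized counts per kilobase, Ctss at 9486 ± 130 and Ctsb at 6084 ± 48.4. At the other end Ctsl was at 1593 ± 27.4 and Ctsk at 60.2 ± 9.28. MDSC-NP-Blk had the same order, with Ctsc and Ctsz, and Ctsh and Ctsa, overlapping. In CITED, Ctsz stood above Ctsc (5550 ± 84.0 against 4460 ± 198), and Ctsh dropped to the eighth place, with Ctsa, Ctsl and Ctsh overlapping from neighbour to neighbour.

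The order depends on the length used, since the canonical transcripts of Ctsl (5908 bases) and Ctsb (4777 bases) are long. Per kilobase of coding length, Ctsl moved up to the fifth place over all libraries from the eighth, and Ctsb up to the second from the third, while Ctsd and Ctsk kept the first and last places. By the canonical length, Ctsd made up 47.1 ± 0.324% of the 9 members' summed level in MDSC, 47.2 ± 0.158% with blank particles and 55.9 ± 0.520% in CITED (SD, n = 4). Over the same groups Ctsb went from 11.1% through 8.32% to 7.75%, and Ctsc from 7.19% through 6.55% to 4.35%. By coding length the shares had other sizes and the same directions between MDSC and CITED, with Ctsd at 35.9%, 36.6% and 44.0%, Ctsb at 23.1%, 17.5% and 16.6%, and Ctsc at 6.16%, 5.70% and 3.85%. By the canonical length the summed level was 54647 ± 957, 64928 ± 1564 and 102682 ± 2725 per kilobase. As a share of all counts, unscaled for composition, the 9 genes took 0.642 ± 0.00601% in MDSC, 0.628 ± 0.0136% with blank particles and 0.974 ± 0.0176% in CITED.

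**Figure D3:**
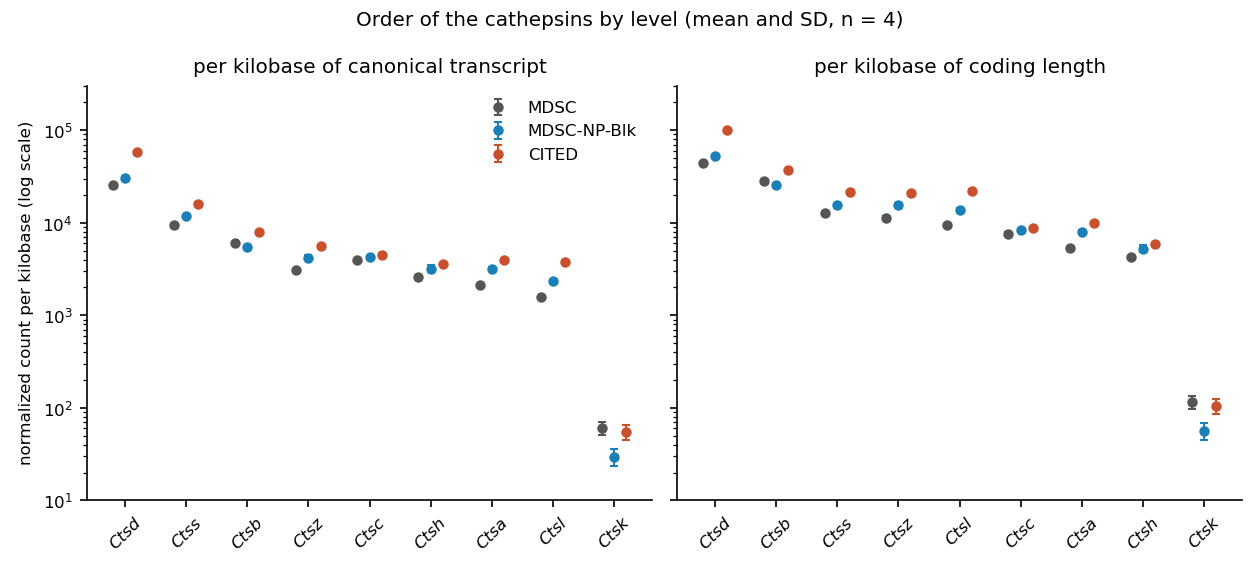
Mean normalized count per kilobase (log axis) of each cathepsin with the SD over the 4 libraries of each group, by canonical transcript length (left) and by coding length (right), ordered by the mean over all libraries. Ctsd leads and Ctsk is last by both lengths, and Ctsl moves from the eighth place to the fifth.

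Genes with the most similar course over the 12 libraries were sought among 10546 genes for the 3 members with the widest range. These values describe 3 groups that stand apart, and so mostly the order of the group means. Ctsl was followed most closely by Ccl9, a chemokine (Pearson r of log2 CPM 0.996), Tmbim1 (0.996) and Slfn1 (0.994). For Ctsd these were Naglu, a lysosomal heparan sulfate hydrolase (0.994), Mmp12, the macrophage elastase (0.994), and Cd68, a lysosomal membrane protein of macrophages (0.992). Ctsk was matched less closely, by Stard9 (0.926), Polrmt (0.918) and Pdpn, podoplanin (0.918), whose log2 fold change was -1.76 with blank particles and 1.38 in CITED against MDSC-NP-Blk.

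Of the 12 other cathepsin genes listed, 4 could be tested, and the rest had under 2 counts over all libraries. Ctsf, a cysteine cathepsin, rose by 2.36 in CITED and by 1.98 in MDSC-NP-Blk against MDSC, from a mean of only 11.5 normalized counts. Ctse, an endosomal aspartic protease related to cathepsin D, rose with blank particles (0.90) and was lower in CITED than in MDSC-NP-Blk (-0.46). Ctso was higher in CITED than in MDSC-NP-Blk (0.41, adjusted p = 0.00529) and did not pass in either other comparison.

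Cystatins and stefins are the inhibitors of the cysteine cathepsins, and they did not move as one. Of 11 tested, 5 rose and 4 fell in CITED against MDSC. With blank particles (MDSC-NP-Blk over MDSC) 5 rose and 3 fell, and with the rapamycin load (CITED over MDSC-NP-Blk) 2 rose and 3 fell. The lists below keep this order. Over all tested genes, 22.2% rose and 22.2% fell in the first comparison and 19.9% and 18.6% in the second. In the third, 10.5% rose and 11.4% fell. These shares stand beside the counts of every list below. Cst7, cystatin F, which enters the lysosome and inhibits cathepsin C, fell by 1.42, 0.31 and 1.11 in these comparisons, from 1419 to 529 normalized counts between MDSC and CITED. Cst3, the secreted cystatin C, rose by 0.67 and 0.61 against MDSC and was at 0.06 (adjusted p = 0.462) between the particle groups. Cstb, the cytosolic stefin B, rose in all 3 (0.73, 0.42 and 0.31). The stefin A genes are near copies of each other, and their counts may be split uncertainly. Stfa1 was at -0.57 in CITED against MDSC where its relative Cstdc4 was at 0.44.

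Among 5 genes that process or accompany the cathepsins, 3 rose and 0 fell in CITED over unmodified cells, 3 rose and 2 fell with blank particles, and 4 rose and 1 fell with the rapamycin load. Lgmn, the asparaginyl protease legumain that processes cathepsins B, H and L, had the course of Ctsb, with -0.24 for blank particles, 0.78 for CITED against MDSC-NP-Blk and 0.54 for CITED against MDSC. Psap, the precursor of the saposins, rose by 0.75 in CITED and by 0.26 in MDSC-NP-Blk against MDSC, and by 0.49 in CITED against MDSC-NP-Blk. Grn, progranulin, rose by 0.91, 0.52 and 0.39 in the order given for Psap.

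The genes that sort these enzymes to the lysosome were divided, with 3 of 9 higher and 4 lower in CITED against MDSC, 2 higher and 3 lower with blank particles, and 4 higher and 1 lower with the rapamycin load. Igf2r, the large mannose 6-phosphate receptor, fell by 1.07 with blank particles and by 0.69 in CITED against MDSC. M6pr, the small receptor, was at 0.12 and 0.17 in the same comparisons. Gga1, an adaptor that loads the receptors at the Golgi, rose in all 3 (0.64, 0.40 and 0.25), while Gga2 fell by 0.72 with blank particles.

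The vacuolar ATPase, the pump that acidifies the lysosome, had mostly higher members in all 3 comparisons. Of 15 subunit genes, 14 rose and 0 fell in CITED against MDSC (median 0.62), 10 rose and 1 fell with blank particles (median 0.27), and 14 rose and 0 fell with the rapamycin load (median 0.24). Atp6v0c, which forms the proton ring, rose by 1.09, 0.62 and 0.48. Atp6v1a, the catalytic subunit, fell by 0.16 with blank particles and was 0.23 higher in CITED than in MDSC-NP-Blk.

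Of 14 tested glycosidases and other acid hydrolases, 10 rose and 3 fell in CITED against MDSC (median 0.44), 8 rose and 3 fell with blank particles (median 0.15), and 9 rose and 1 fell with the rapamycin load (median 0.31). Hexa, a β-hexosaminidase subunit, rose by 0.76, 0.42 and 0.34. Arsb, a sulfatase of dermatan sulfate, fell by 1.81, 0.70 and 1.11.

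The 7 genes of the MiT/TFE transcription factors and the folliculin complex that regulates them gave 4 higher and 1 lower in CITED against MDSC, 3 higher and 2 lower with blank particles, and 2 higher and 0 lower with the rapamycin load. Tfe3 rose by 0.81 in CITED and by 0.74 with blank particles, and Tfeb by 0.58 and 0.54. Between CITED and MDSC-NP-Blk they were at 0.08 (adjusted p = 0.397) and 0.04 (adjusted p = 0.761). The 2 that rose there were Flcn, folliculin (0.46), and its partner Fnip2 (0.55). These are transcript levels and do not report where in the cell the factors were.

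The granule serine proteases that cathepsin C activates went down while Ctsc itself changed little. Of 6 tested, 4 fell and 0 rose in each comparison. The rest, Gzma and Gzmb, were at 15.3 normalized counts or less in every library and did not pass. Elane, neutrophil elastase, fell by 3.27 in CITED and by 0.47 in MDSC-NP-Blk against MDSC, from a mean of 15040 normalized counts in MDSC to 1557 in CITED. Prtn3, proteinase 3, fell by 2.17 and 0.42, and Ctsg, cathepsin G, by 2.70 and 1.37. The class II genes, whose invariant chain cathepsins S and L cut, gave 6 of 6 higher in CITED against MDSC, 5 higher and 0 lower with blank particles, and 2 higher and 2 lower with the rapamycin load. Cd74, the invariant chain, rose by 0.50 with blank particles and was 0.28 lower in CITED than in MDSC-NP-Blk, where Ctss and Ctsl rose. H2-DMa, the peptide exchange factor, rose by 1.03, 0.75 and 0.27.

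**Figure D4:**
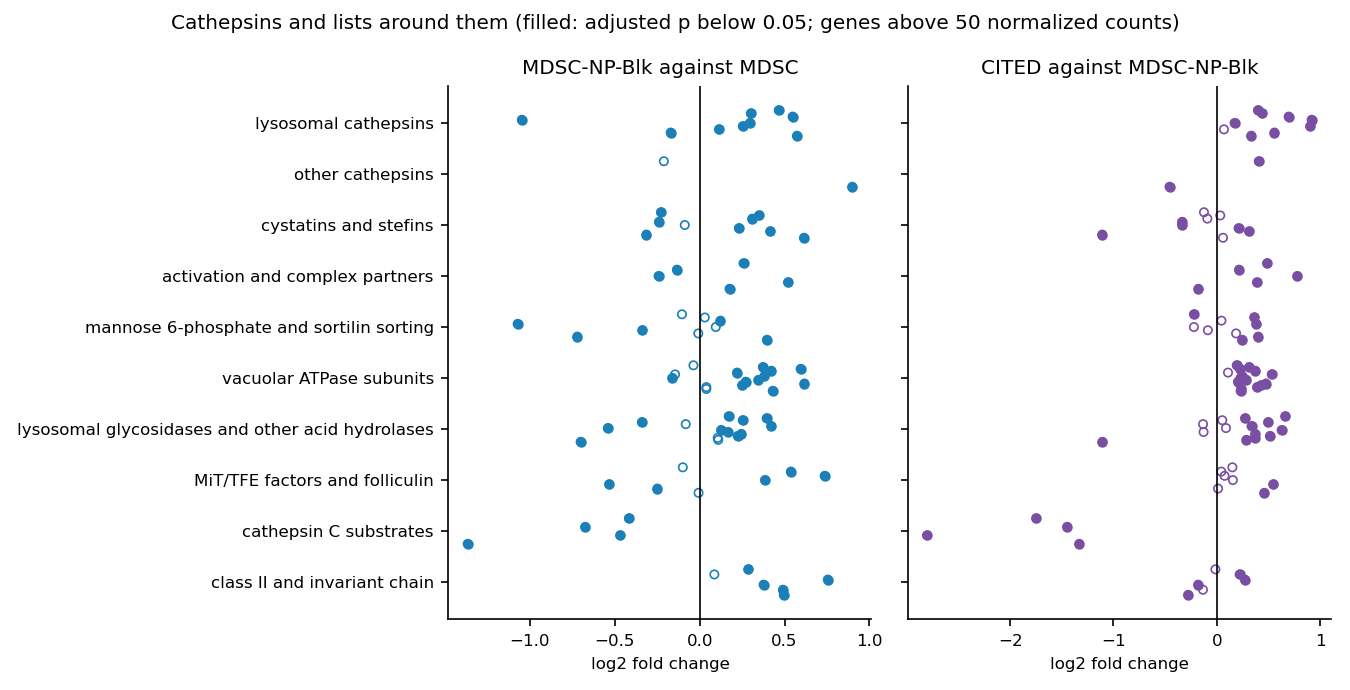
Log2 fold change (x axis) of each cathepsin and of each gene of the surrounding lists with over 50 normalized counts on average, with blank particles (left) and for CITED against MDSC-NP-Blk (right). Filled points passed the test. The vacuolar ATPase points lie mostly right of 0 in both panels, and the 4 cathepsin C substrates lie left of 0 in both.

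Cathepsins are high in macrophages and monocytes, so the markers of cell types in the cultures were set beside them. The 7 macrophage markers summed to 14181 to 14896 normalized counts in MDSC, 11490 to 13254 with blank particles and 16744 to 18519 in CITED, the order of the groups being that of Ctsb. Within the list, 2 rose and 5 fell in CITED against MDSC. Cd68, itself a lysosomal protein, rose by 1.06, while C1qa fell by 4.05 and Mrc1 by 2.81. In CITED the macrophage sum was mostly Cd68, at a mean of 12678 of 17767, against 6096 of 14543 in MDSC. The order of the sums therefore leans on this gene and does not describe the 5 markers that fell. The 7 monocyte markers summed to 43983 to 46459, 60320 to 61996 and 45932 to 49103, and the 9 neutrophil markers to 845805 to 946231, 1204280 to 1270600 and 887318 to 1005380 in MDSC, MDSC-NP-Blk and CITED. Both sums were highest in MDSC-NP-Blk, where 0 of the 9 cathepsins had their highest mean. The part of such cell types in the cathepsin values was not tested.

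The other cell types gave the following sums in MDSC, MDSC-NP-Blk and CITED. The 7 osteoclast markers, set beside Ctsk, summed to 5160 to 5534, 4849 to 5212 and 7024 to 7430, with Calcr, the calcitonin receptor, at 0 in every library. The list did not move as one. Atp6v0d2, an osteoclast ATPase subunit, and Acp5, the tartrate-resistant phosphatase, fell with blank particles (-0.48 and -0.35) and were higher in CITED than in MDSC-NP-Blk (1.09 and 0.52), the directions of Ctsk. Dcstamp, a fusion protein, rose in both of these comparisons (0.89 and 0.36), and Ocstamp fell by 1.34 with blank particles and was at -0.35 (adjusted p = 0.0572) in the other. Nfatc1 was at 0.04 and -0.02 and passed in neither, and Oscar was at 4.75 normalized counts or less. The 6 dendritic cell markers summed to 10716 to 11645, 7269 to 7656 and 9088 to 10126, and the 6 mast cell and basophil markers to 11327 to 12270, 12853 to 14223 and 7235 to 7694. B cell markers summed to 324 ± 42.4, 222 ± 35.9 and 81.7 ± 12.6 (SD, n = 4), and those of T and NK cells and of erythroid cells stayed at or under 72.3 and 102 in every library. Their part in the values of the cathepsins was not tested.

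Leaving out either pair of the MDSC-NP-Blk libraries that stood apart left 7 higher and 2 lower members (without 1 and 4) or 6 higher and 2 lower (without 2 and 3) in MDSC-NP-Blk against MDSC. In CITED against MDSC-NP-Blk these choices left 8 and 7 higher members. The members lost were Ctsc in the first comparison (0.06, adjusted p = 0.421) and Ctsh in the second. Ctsl, Ctsh, Ctsd and Ctsa were each higher in libraries 1 and 4 than in 2 and 3, and Ctsc was lower.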

How the data were processed

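Poly(A) RNA of 12 libraries was sequenced with paired-end reads. The deposited values are raw counts per gene symbol, which the authors made with Salmon 1.4.0 against GENCODE transcripts with GRCm39 decoys, imported with tximport in R 4.3.2 and summed by gene. The release was not given in the sources used here. The values are whole, so estimated counts had been rounded. The row without a symbol held 0 counts.

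Groups and replicate numbers came from the labels. Genes with at least 2 counts over all libraries were tested with edgeR 4.0.16 (TMM, glmQLFit and glmQLFTest, group only, 12 libraries, Benjamini-Hochberg over 17676 genes). The biological coefficient of variation was 9.03%. Lengths and positions came from GENCODE M39, promoters from RefSeq. Scripts were tested on simulated data.

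The members and gene lists were chosen with earlier results of these data known. Named are all members, from each list the 3 genes with the lowest p in a comparison or past the fold threshold, and for markers the most abundant. Stfa1, Cstdc4, Neu1, Glb1, M6pr, Atp6v1a, Ly6g, Calcr, Oscar, Nfatc1, Acp5, Tmem119, P2ry12, Snap25 and Gfap lie outside this rule and were chosen after their values were seen. The same holds for Gzma and Gzmb. Alternatives were DESeq2 1.42.0, other scalings and filters, a length correction, a replicate block and leaving out libraries.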

Additional observations from a re-analysis of the deposited data

Results flagged for a closer look

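Of 225 groups of 4 libraries examined over 75 genes, 12 held a library set apart from the other 3 by Dixon's gap ratio, where chance gives about 1 in 20. Among the members this was Ctss in MDSC-NP-Blk replicate 1, at 16459 normalized counts against 15758 to 15840 in the others, still below every CITED library. The same replicate was apart for Cd74, at 21650 against 20058 to 20109. MDSC replicate 2 was apart for Gnptab (1796 against 1985 to 2021), Atp6v0b (3910 against 3556 to 3606), H2-DMa (2408 against 2073 to 2106) and Ccl9 (22852 against 21477 to 21623). MDSC-NP-Blk replicate 4 was apart for Ctso, at 297 against 247 to 252. Among the marker genes, CITED replicate 4 was apart for Ly6g (4356 against 4621 to 4643), and CITED replicate 3 for Mbp (1978 against 1866 to 1875) and for Oscar (4.43 against 0). MDSC replicate 3 was apart for P2ry12 (30.3 against 48.2 to 51.8) and MDSC replicate 4 for Ocstamp (549 against 431 to 443).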

How the results depend on the processing

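Over 24 alternative settings, 522 log2 fold changes of the members were recomputed, of which 502 kept their direction and side of the threshold, 17 lost the threshold and 3 changed sign. The 3 were all under library totals alone: Ctsc at -0.091 in CITED against MDSC and -0.15 in MDSC-NP-Blk against MDSC, and Ctsd at -0.0084 in MDSC-NP-Blk against MDSC. That scaling moved the split of all genes past the test from 3930 higher and 3932 lower to 2192 and 6323 in CITED against MDSC, and from 3522 and 3293 to 1662 and 6107 in MDSC-NP-Blk against MDSC. It left Ctsl (0.97) and Ctsd (0.88) under the fold threshold in CITED against MDSC. The cause was not tested. Leaving out single libraries gave 8 members past the test in CITED against MDSC each time, 8 to 9 in MDSC-NP-Blk against MDSC, and 7 to 8 in CITED against MDSC-NP-Blk. Without CITED replicate 3 or MDSC-NP-Blk replicate 1, Ctsk passed the fold threshold in CITED against MDSC-NP-Blk. Leaving out libraries 1 and 4 or 2 and 3 of MDSC-NP-Blk, and the coding length, were chosen after seeing the data.

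The replicate numbers are shared between groups, but no source says that they pair the libraries. Same-numbered libraries correlated at -0.0598 to 0.14 in their deviations from the group means, and 0 to 2 of 4 matched their own number best, so the fit with the replicate number as a block was an alternative only. With the block, 8 members passed between CITED and MDSC, 9 between MDSC-NP-Blk and MDSC, and 8 between the particle groups. Over all genes the stricter calls went from 1765 to 1621, from 838 to 766 and from 469 to 441. Ctsk, at 42.0 to 128 normalized counts, is the member that depth limits most, and a count of 0 allows up to 3 counts.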
